A study of Mus musculus with 9 samples.

Results

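The genes described here are 49 genes of G2 phase and mitosis, taken by gene symbol from a table of transcript abundances for 55357 mouse genes. Each of the 49 symbols matched 1 row of the table. The values are TPM, which divide reads by transcript length and sum to 1000000 in each library, so levels can be compared between genes. They come from 5 poly(A) RNA libraries of SV40-MES-13, a line from mouse kidney that the submitters call mesangial. In 2 libraries (EV) the cells carried an empty lentiviral vector and are labelled wild type. In 1 library (sh5) and in 2 libraries (sh7) they carried an shRNA against Drosha, whose RNase product releases microRNA hairpins in the nucleus. Sample titles use the word KO for them, but knockdown by shRNA is what the protocols describe. All groups share the SV40 background of the line and an infection with lentivirus. No time after infection, clone or selection step is given in the sources used here. The series also holds 4 small RNA samples, which were not analysed here.

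The cell cycle is driven by cyclin-dependent kinases. Cyclin A and cyclin B bind Cdk1 to bring a cell from G2 into mitosis, where condensins compact the chromosomes, kinesins and spindle proteins build the spindle, and kinetochores attach chromosomes to it. The spindle checkpoint holds the anaphase-promoting complex (APC/C) inactive until every chromosome is attached. The APC/C with its activator Cdc20 then marks cyclin B and securin for destruction, and cytokinesis separates the daughter cells. The mRNAs of these genes are transcribed together late in the cycle by B-Myb, FoxM1 and the MuvB complex, which binds a short promoter element, the cell cycle genes homology region (CHR). NF-Y binds CCAAT boxes in the same promoters. SV40 large T antigen binds p53 and the Rb family, which otherwise restrain this programme, and mitotic mRNAs are therefore abundant in SV40-transformed lines.

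The constructs differ in the Drosha sequence that they target. Both are printed as the labels give them, because they define the groups compared.
sh5: cctggaatatgtccacacttt
sh7: gtgtgcccattgaaataaa

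Promoters were read for the genes because the CHR and CCAAT elements are what these genes are known to share, and neither was used to choose them. Windows of 300 bases, from 250 before to 50 after a RefSeq start (GRCm38.p6), were at hand for 41 of the 49 genes. The letters TTTGAA, the classic form of the CHR, were found on either strand in a window of 28 of the 41 genes, which is 68.3%, against 20.2% of all 27025 genes with a window. TTTAAA, a second form, which reads the same on both strands, was found in 12 of the 41 (29.3%, against 14.9% of all genes), and CCAAT on either strand in 30 (73.2%, against 41.1%). A window with 1 of the 2 CHR forms and a CCAAT was present for 27 of the 41 genes, or 65.9%, and for 12.2% of all genes. Matches of different motifs did not overlap in the windows of these genes (0 overlapping pairs). A match is a description of the letters, and these shares carry no test.

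Windows are printed for 3 of the genes that were lowest in sh7 (Ckap2l, Cdc20, Ccnb1) and 3 that were lowest in sh5 (Mki67, Cenpf, Kif20b). Each of these holds a CHR form, which not all of the lowest genes do. The window of Mad2l1, also among the lowest in sh7, holds none of the motifs. That of Cenpe, the lowest in sh5, holds TTTAAA and CCAAT but no TTTGAA. The printed windows are 5′ to 3′ on the strand of the gene, and capitals mark the letters of these motifs or their reverse complements. They lie at chr2:129297163-129297462 (minus strand, Ckap2l), chr4:118437294-118437593 (minus strand, Cdc20), chr13:100786437-100786736 (minus strand, Ccnb1), chr7:135716330-135716629 (minus strand, Mki67), chr1:189688037-189688336 (minus strand, Cenpf) and chr19:34922108-34922407 (plus strand, Kif20b).
Ckap2l: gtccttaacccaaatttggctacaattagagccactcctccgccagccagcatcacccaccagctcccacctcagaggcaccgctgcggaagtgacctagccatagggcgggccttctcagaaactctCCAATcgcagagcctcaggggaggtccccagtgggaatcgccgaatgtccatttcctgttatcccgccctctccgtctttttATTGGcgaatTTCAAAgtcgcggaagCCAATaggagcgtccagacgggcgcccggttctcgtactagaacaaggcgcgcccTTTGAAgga
Cdc20: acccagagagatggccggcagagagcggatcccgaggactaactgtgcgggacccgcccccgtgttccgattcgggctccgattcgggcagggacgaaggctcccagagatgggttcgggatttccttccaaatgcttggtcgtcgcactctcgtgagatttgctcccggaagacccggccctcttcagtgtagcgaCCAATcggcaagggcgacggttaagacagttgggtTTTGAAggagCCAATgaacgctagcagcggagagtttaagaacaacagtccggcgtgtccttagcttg
Ccnb1: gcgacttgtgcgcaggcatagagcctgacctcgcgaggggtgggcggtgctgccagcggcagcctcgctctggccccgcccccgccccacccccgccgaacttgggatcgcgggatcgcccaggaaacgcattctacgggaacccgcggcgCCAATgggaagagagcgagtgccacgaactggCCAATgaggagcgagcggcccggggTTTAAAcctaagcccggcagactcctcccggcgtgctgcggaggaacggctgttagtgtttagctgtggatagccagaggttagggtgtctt
Mki67: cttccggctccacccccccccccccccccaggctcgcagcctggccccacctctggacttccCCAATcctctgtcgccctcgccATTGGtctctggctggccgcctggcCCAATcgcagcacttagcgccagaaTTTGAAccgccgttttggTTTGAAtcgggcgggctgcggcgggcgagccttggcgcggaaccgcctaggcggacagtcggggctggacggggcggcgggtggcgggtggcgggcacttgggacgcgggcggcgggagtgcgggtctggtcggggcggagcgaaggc
Cenpf: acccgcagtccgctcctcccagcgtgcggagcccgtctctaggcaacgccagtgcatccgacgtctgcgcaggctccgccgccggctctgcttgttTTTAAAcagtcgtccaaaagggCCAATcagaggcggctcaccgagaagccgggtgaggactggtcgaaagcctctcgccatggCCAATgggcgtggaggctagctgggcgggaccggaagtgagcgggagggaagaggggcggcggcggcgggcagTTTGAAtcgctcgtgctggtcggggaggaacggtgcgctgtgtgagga
Kif20b: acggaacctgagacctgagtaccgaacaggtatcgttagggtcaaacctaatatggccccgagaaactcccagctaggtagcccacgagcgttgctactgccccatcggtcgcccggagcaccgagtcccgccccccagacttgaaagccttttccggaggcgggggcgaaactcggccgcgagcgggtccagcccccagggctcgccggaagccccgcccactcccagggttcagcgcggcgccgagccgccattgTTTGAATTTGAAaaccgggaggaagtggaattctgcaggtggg

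In Cdc20 the CHR letters stand 18 bases before the start between a pair of CCAAT boxes. In Ccnb1 the second form stands 42 bases before the start, downstream of CCAAT boxes at 99 and 67 bases before it. In Kif20b a tandem pair of TTTGAA begins 8 bases after the start, with no CCAAT in the window. Of the 28 genes with TTTGAA, 25 had a match between 60 bases before and 50 after the start.

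**Figure D1:**
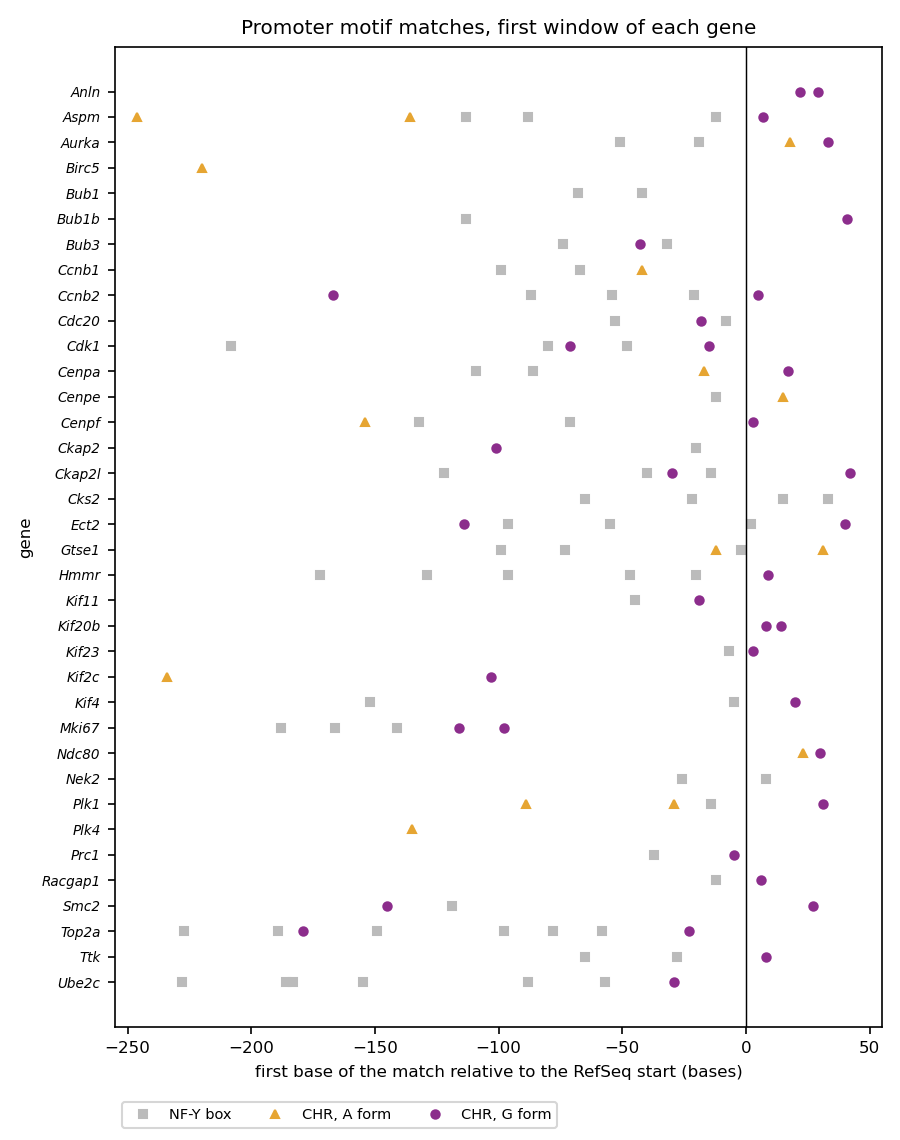
Position of promoter motif matches in the first RefSeq window of each gene with a match, in bases from the start, with circles and triangles for the 2 CHR forms and grey squares for CCAAT. Most circles lie close to the start, and 25 of the 28 genes with the TTTGAA form have one between 60 bases before and 50 after it.

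Drosha mRNA, the target of both shRNAs, stood at 60.03 and 56.4 (EV), 36.0 (sh5) and 8.39 and 14.9 TPM (sh7), so both constructs lay below EV and sh7 lay lowest. The log2 difference was -2.27 (SE 0.266, adjusted p = 0.109) for sh7 and -0.68 (SE 0.326, adjusted p = 0.572) for sh5 by limma. The defining markers did not match the labelled cell type. Of 7 mesangial or related markers, Pdgfrb, Itga8 and Ren1 among them, 0 reached a mean of 1 TPM and their summed level was 1.31 to 2.18 TPM, with Ren1 at 0 in every library. All 5 tubule epithelial markers did, led by Cdh16 and Pax8, with a summed level of 233 to 298 TPM. Among them Cdh1 and Lrp2 were low, at means of 4.70 and 1.55 TPM. Of 4 macrophage markers 2 also reached 1 TPM, Cd68 at 10.1 and Csf1r at 7.51 TPM. Of 5 podocyte markers 1 did, Podxl at 4.85 TPM, and of 4 endothelial markers 0 did. The EV libraries differed from each other as well. The interferon-stimulated gene Isg15 was at 11.6 TPM in EV replicate 1 and 463 TPM in EV replicate 2, against 302 to 780 TPM in the other libraries.

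All 49 genes passed the filter used for testing, a mean of at least 1 TPM, which 12728 genes met. Their mean levels over the 5 libraries ran from 15.1 to 439 TPM with a median of 95.7 TPM, against a median of 21.5 TPM for all tested genes. The highest were Cdk1 (439 TPM), the catalytic subunit that drives entry into mitosis, Ube2c (400 TPM), the ubiquitin-conjugating enzyme of the APC/C, and Top2a (295 TPM), the topoisomerase that untangles sister chromatids. The lowest were Aspm (15.1 TPM), a spindle pole protein, Kif18a (16.0 TPM), a kinesin that dampens chromosome movement, and Cenpf (20.5 TPM), a kinetochore protein. Among the lowest 3, the spread over libraries was larger than the gaps between the means: Aspm ranged from 8.16 to 21.7 TPM, Kif18a from 11.6 to 19.4 TPM and Cenpf from 9.46 to 26.2 TPM. Together the 49 genes took up 0.645% and 0.568% of all TPM in EV, 0.512% in sh5 and 0.584% and 0.605% in sh7. The sh5 library thus held the smallest share, while both sh7 libraries lay between the EV replicates.

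The EV replicates did not agree on these genes. In EV replicate 1, 44 of the 49 genes were higher than in EV replicate 2, by a median of 0.21 log2 units, against a median of 0.04 over all tested genes, of which 56.6% were higher. EV replicate 1 was the highest of the 5 libraries for 30 genes, and sh5 the lowest for 33, counts that were not taken over all tested genes. Comparisons with EV therefore depend on which EV library is used. The comparisons of sh5 and of sh7 with EV share these EV libraries.

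**Figure D2:**
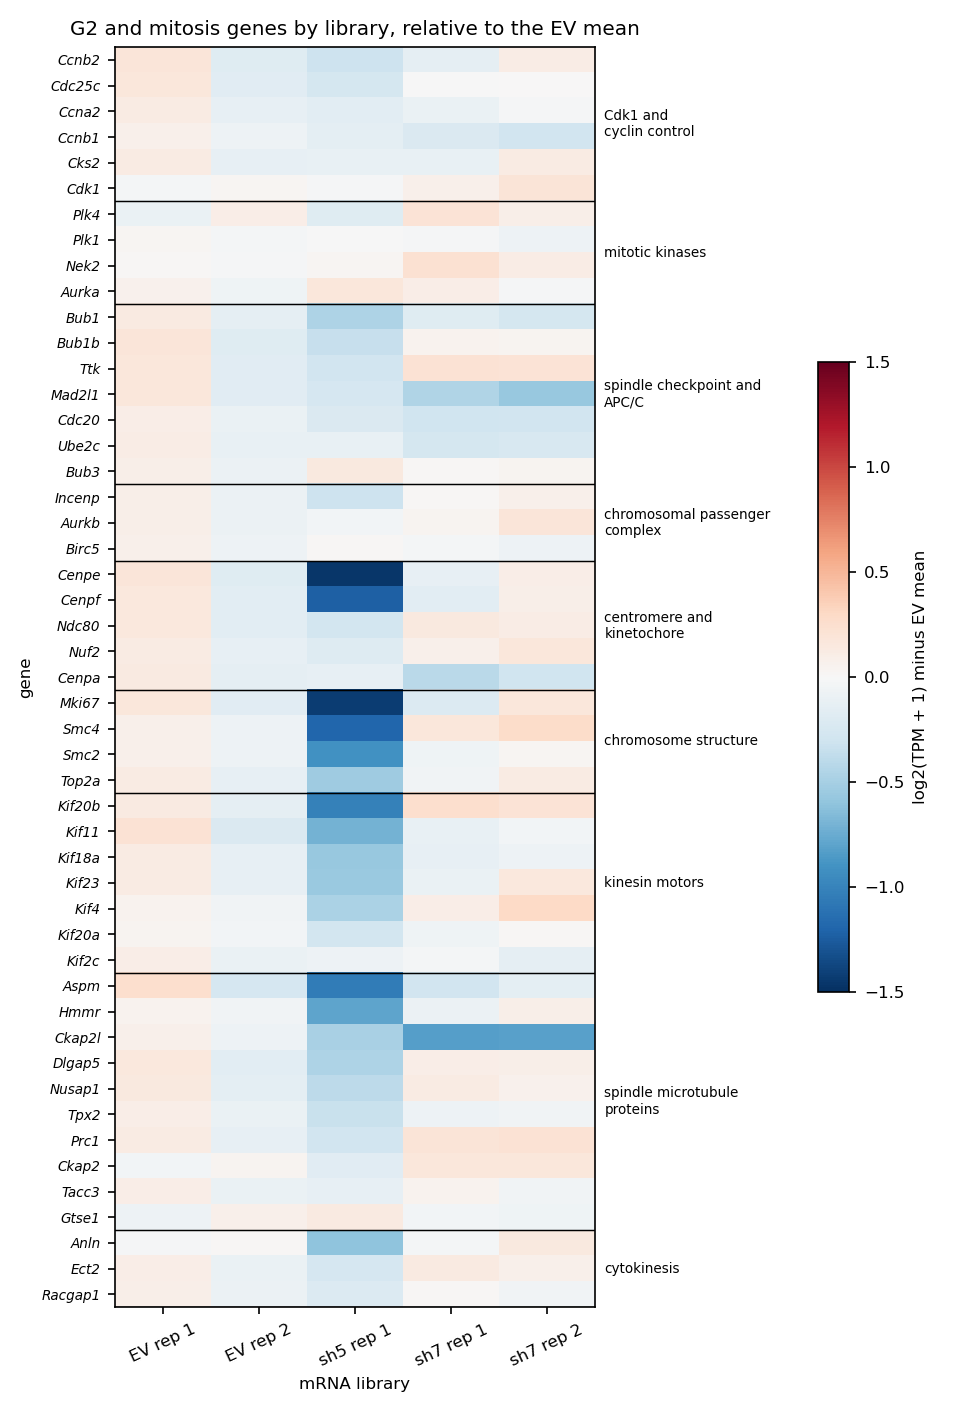
Log2(TPM + 1) of each of the 49 genes in each of the 5 libraries, as the difference from the mean of both EV libraries, ordered by role. The sh5 column holds the darkest blue cells, led by Cenpe and Mki67, while Ckap2l and Mad2l1 are the darkest in the sh7 columns.

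In the sh5 library, 44 of the 49 genes had a fitted level below EV, where 58.2% of all tested genes did, and the median difference was -0.27 log2 units against -0.05 for all tested genes. In bulk RNA, fewer cells in G2 and mitosis and less mRNA per cell cannot be told apart. Of the 49 genes, 38 lay below both EV libraries, or 77.6%, beside 43.7% of all tested genes, and 4 lay above both, beside 26.9%. No gene passed the threshold of an adjusted p of 0.05 in this comparison (0 of 12728 by limma, 0%, and 0 of the 49). At an unadjusted p under 0.05, 19 of the 49 genes were lower and 0 higher, against 7.96% and 1.59% of all tested genes. The fit takes the spread of sh5, a single library, from EV and sh7. Without EV replicate 1 the median was -0.16 (-0.04 for all tested genes), and 39 genes lay below the remaining EV library, beside 56.9% of all tested genes. Without EV replicate 2 the median was -0.42 (-0.08 for all), and 44 genes lay below, beside 59.4%. Under median-of-ratios scaling and quantile normalization, 34 and 37 of the 49 genes lay below both EV libraries, beside 35.1% and 33.0% of all tested genes.

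The genes were not equally low. In sh5, 9 of the 49 stood under 60% of their EV mean, beside 7.61% of all tested genes. Within 10% of it stood 12, a count that was not taken over all tested genes. The 9 were Cenpe, Mki67, Cenpf, Smc4, Aspm, Kif20b, Smc2, Hmmr and Kif11. The genes near their EV level included the kinases Plk1, Nek2 and Aurkb, the passenger protein Birc5, Cdk1 and its small partner Cks2. Not all kinases were near it: Bub1 and Ttk, listed with the spindle checkpoint, stood at 71.8% and 80.8% of their EV mean in sh5. Mitochondrially encoded mRNAs and 18S rRNA stood apart in the same library. The 13 mitochondrial mRNAs held 0.396% of TPM in sh5, against 0.751% to 1.42% in the others, and Rn18s was at 585 TPM against 392 to 438 TPM. Their part in the result was not tested. Transcript lengths were not at hand, so whether the genes lowest in sh5 have long transcripts was not examined.

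Chromosome structure genes were the lowest group in sh5, with a median difference of -1.05 log2 units. All 4 lay below both EV libraries, where 43.7% of all tested genes did. Smc4, which with Smc2 forms the ATPase core of condensin, stood at 153 and 139 (EV), 63.3 (sh5) and 165 and 177 TPM (sh7). The EV mean was 146 ± 10.2 TPM (SD, n = 2). The sh5 library lay below every other library, at 43.4% of that mean (log2 difference -1.19, SE 0.113, adjusted p = 0.342 by limma). Smc2 stood at 65.4 and 58.3 (EV), 32.5 (sh5) and 58.8 and 62.9 TPM (sh7). Again only sh5 stood apart, at 52.5% of EV (log2 difference -0.91, SE 0.128, adjusted p = 0.376). Mki67 encodes Ki-67, the proliferation antigen that coats mitotic chromosomes. It stood at 53.1 and 42.0 (EV), 17.0 (sh5) and 40.9 and 53.3 TPM (sh7), with the sh7 range overlapping EV (sh5 log2 difference -1.42, SE 0.225, adjusted p = 0.376). Top2a stood at 339 and 285 (EV), 215 (sh5) and 299.6 and 337 TPM (sh7).

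At the centromere and kinetochore the genes split. Cenpe, a kinesin that carries chromosomes to the spindle equator, stood at 34.7 and 26.7 (EV), 10.4 (sh5) and 27.9 and 32.8 TPM (sh7). Both sh7 values lay within the EV range and the sh5 value was 34.0% of the EV mean (log2 difference -1.46, SE 0.210, adjusted p = 0.376). Cenpf stood at 26.2 and 21.0 (EV), 9.46 (sh5) and 20.9 and 25.02 TPM (sh7), with sh5 the lowest (log2 difference -1.22, SE 0.205, adjusted p = 0.376). Ndc80 and Nuf2, which bind microtubules as partners in 1 complex, differed less: Ndc80 was at 54.8 and 44.0 TPM in EV and 40.5 TPM in sh5, and Nuf2 at 81.4 and 68.6 TPM and 65.1 TPM. Cenpa, the histone H3 variant that marks centromeres, had an sh5 value of 205 TPM, inside the EV range of 204 to 245 TPM.

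Of the 7 kinesin motors, 6 lay below both EV libraries in sh5 (85.7%, beside 43.7% of all tested genes), with a median of -0.55 log2 units. Kif20b, which acts in cytokinesis, stood at 53.0 and 43.8 (EV), 23.4 (sh5) and 57.6 and 55.8 TPM (sh7). The sh5 value was the lowest and both sh7 values lay above EV (sh5 log2 difference -1.01, SE 0.152, adjusted p = 0.376). Kif11, the motor that pushes spindle poles apart, was at 75.4 and 55.1 TPM in EV and 39.0 TPM in sh5, and Kif23, a subunit of centralspindlin, at 185 and 156 TPM and 115 TPM. Kif20a, a motor of the central spindle, was at 81.2 TPM in sh5 against 102 and 95.4 TPM, and Kif18a at 11.6 TPM against 19.4 and 16.1 TPM. Kif2c, a microtubule depolymerase, was the motor that overlapped EV, with 52.1 TPM in sh5 against 59.3 and 51.2 TPM.

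Among the 10 spindle microtubule proteins, 9 lay below both EV libraries in sh5 (90.0%, beside 43.7% of all tested genes) and Gtse1 lay above them. Their median was -0.36. Aspm was at 21.7 and 15.0 TPM in EV and 8.16 TPM in sh5, and Hmmr, a spindle assembly factor, at 62.4 and 57.7 TPM and 34.4 TPM. Tpx2, which activates Aurka on the spindle, stood at 125 and 109 (EV), 92.8 (sh5) and 111 and 112 TPM (sh7). Nusap1, a microtubule bundler, stood at 76.3 and 62.4 (EV), 52.5 (sh5) and 75.1 and 72.1 TPM (sh7), and Dlgap5, a spindle assembly protein, at 131 and 105 (EV), 84.9 (sh5) and 126 and 124 TPM (sh7). For Tpx2, Nusap1 and Dlgap5, sh5 was the lowest library and the sh7 values lay inside the EV range. Tacc3, which links clathrin and microtubules, was at 155 TPM in sh5, just below its EV values of 180.3 and 158 TPM. Gtse1, which stabilises microtubules at their tips, was at 83.7 and 92.8 TPM in EV and 96.8 TPM in sh5. The cytokinesis genes Anln, Ect2 and Racgap1 all lay below both EV libraries in sh5, where 43.7% of all tested genes did. Anln, a scaffold of the contractile ring, was the lowest of them relative to EV, at 73.2 TPM against 110 and 114 TPM. Ect2, the exchange factor that activates RhoA at the cleavage furrow, stood at 146 and 126 (EV), 114 (sh5) and 149 and 143 TPM (sh7). Racgap1, the other subunit of centralspindlin, was at 214 TPM in sh5 against 261 and 233 TPM.

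Among the regulators the groups differed in sh5. The 4 mitotic kinases had a median of 0.01 log2 units: Plk1 was at 133 and 127 TPM in EV and 130.2 TPM in sh5, and Aurka, which matures the spindle poles, at 125 and 115 TPM and 135 TPM. Plk4, which sets centriole number, was at 45.8 TPM in sh5, below its EV values of 48.4 and 55.9 TPM. In the chromosomal passenger complex Birc5 (survivin) stood at 297 and 268 (EV), 286 (sh5) and 276 and 269 TPM (sh7), and Aurkb at 120 and 105 (EV), 109 (sh5) and 115 and 127 TPM (sh7). Incenp, the scaffold of the complex, was the member below both EV libraries in sh5, at 78.8 TPM against 105 and 92.3 TPM. The 6 genes of Cdk1 and cyclin control had a median of -0.15 and the 3 genes of the chromosomal passenger complex, which corrects wrong attachments, -0.04. The 7 genes of the spindle checkpoint and APC/C had a median of -0.26. Of these, 6 lay below both EV libraries (85.7%, beside 43.7% of all tested genes) and Bub3, a scaffold of the checkpoint, lay above them. In these 4 groups, 0 genes stood under 60% of their EV mean in sh5, beside 7.61% of all tested genes.

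**Figure D3:**
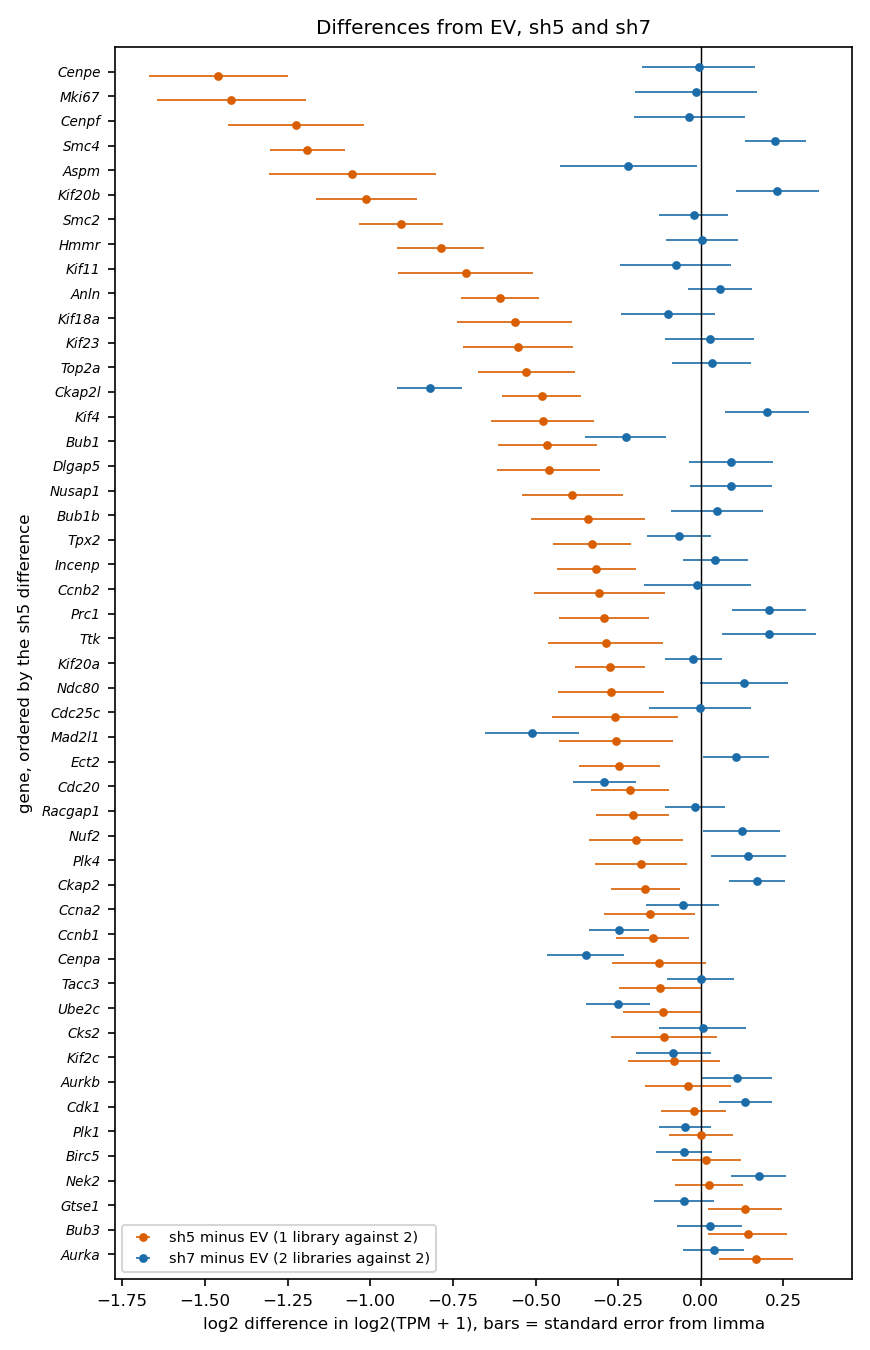
Log2 difference from EV of each of the 49 genes in sh5 (orange) and sh7 (blue) on the log2(TPM + 1) scale, with standard errors from limma, ordered by the sh5 difference. The sh5 values run from -1.46 for Cenpe to 0.17 for Aurka, and the sh7 values from -0.82 for Ckap2l to 0.23 for Kif20b.

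In the sh7 libraries, where Drosha mRNA was lowest, 24 of the 49 genes had a fitted level above EV and 25 below in the deposited TPM, where 64.3% of all tested genes lay above and 35.7% below. Scaling by median-of-ratios turned this into 15 genes above and 34 below, and quantile normalization into 16 above and 33 below. In the deposited TPM the genes had a median of 0 to 2 decimals (-4.29e-05 log2 units), against 0.09 for all tested genes. In sh7, 1 of the 49 (Ckap2l) stood under 60% of its EV mean, beside 2.25% of all tested genes. Mean levels in sh7 lay between the EV replicates for 28 genes and within 10% of the EV mean for 33, counts not taken over all tested genes. Both sh7 libraries lay below both EV libraries for 7 genes, or 14.3%, which equals the 14.3% of all tested genes, and above them for 8, or 16.3%, beside 35.8%. By limma 2 of 12728 genes passed the threshold (0.0157%), which were Dgcr8 and Mir22hg, named here after their values were seen, and 0 of the 49. At an unadjusted p under 0.05 5 of the 49 were lower and 0 higher, beside 4.15% and 10.3% of all tested genes. The counts followed the EV library and the scaling. Without EV replicate 1 the median was 0.12 against 0.11 for all tested genes, with 32 genes above and 8 below the remaining EV library, beside 54.9% and 22.1% of all tested genes. Without EV replicate 2 it was -0.09 against 0.06, with 10 above and 31 below, beside 47.3% and 31.7%. Leaving out sh7 replicate 1 gave 14 above and 9 below, beside 49.2% and 22.8%, and leaving out sh7 replicate 2 gave 11 above and 13 below, beside 47.0% and 24.3%. Median-of-ratios scaling gave 5 above and 18 below, beside 24.2% and 23.5% of all tested genes, and quantile normalization 4 above and 13 below, beside 21.3% and 25.3%. These scalings moved the median of all genes by up to 0.11 for sh7, and relative to it the 49 genes had a median of -0.09 in the deposited TPM, -0.09 with median-of-ratios scaling and -0.02 with quantile normalization.

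**Figure D4:**
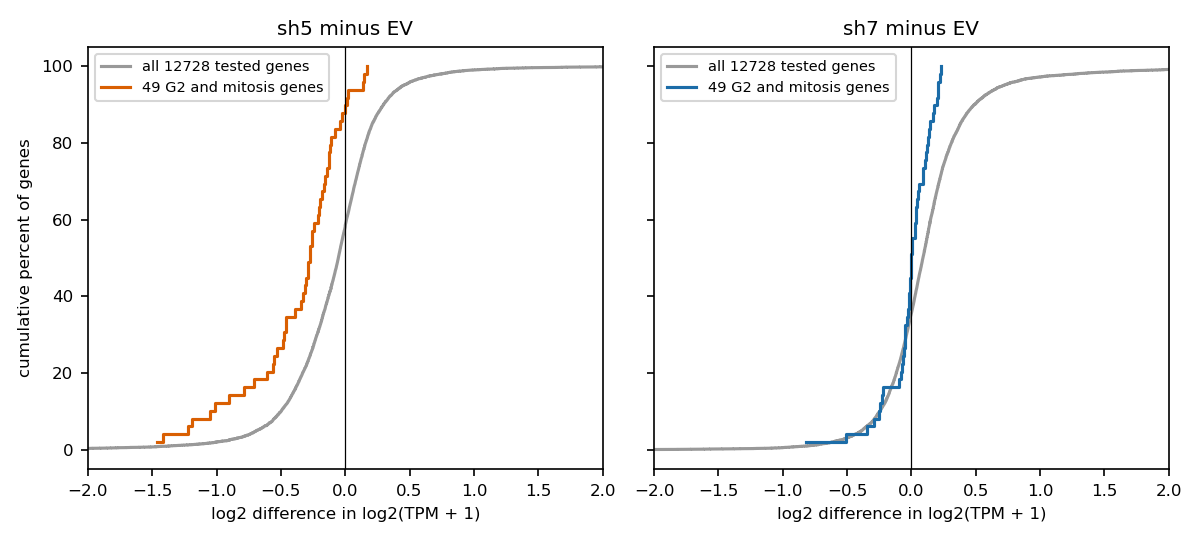
Cumulative percent of genes against the log2 difference from EV, for the 49 genes and for all 12728 tested genes, in sh5 (left) and sh7 (right), drawn between -2 and 2. The 49 genes lie to the left of all genes in sh5, with medians of -0.27 and -0.05, and in sh7 they start with the all-gene curve and end before it, with a highest value of 0.23.

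The 7 genes that lay below both EV libraries in both sh7 libraries were Ckap2l, Mad2l1, Cdc20, Cenpa, Ccnb1, Ube2c and Bub1. Ckap2l encodes a microtubule-associated protein of the spindle and a paralog of Ckap2. It stood at 82.8 and 74.1 (EV), 55.8 (sh5) and 43.8 and 44.0 TPM (sh7). The sh7 mean was 43.9 ± 0.157 TPM (SD, n = 2), or 56.0% of the EV mean of 78.4 ± 6.16 TPM (SD, n = 2), with sh5 between the groups (sh7 log2 difference -0.82, SE 0.0977, adjusted p = 0.109 by limma, sh5 -0.48, SE 0.120, adjusted p = 0.477). Without EV replicate 2, which leaves a single EV library, the sh7 difference of Ckap2l was -0.90. Over all alternatives this difference ran from -0.92 to -0.74. Ckap2 itself went the other way, at 61.5 and 64.7 (EV), 56.0 (sh5) and 71.2 and 71.0 TPM (sh7).

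Of the 7, 4 belong to the spindle checkpoint and APC/C, itself a group of 7 genes. Genes below EV in both sh7 libraries were 14.3% of the 49 and 14.3% of all tested genes, so their roles are given as description only. Mad2l1, the checkpoint protein that sequesters Cdc20, stood at 107 and 83.7 (EV), 79.0 (sh5) and 68.6 and 63.6 TPM (sh7). Its sh7 log2 difference was -0.51 (SE 0.142, adjusted p = 0.278), and the groups did not overlap. Cdc20 stood at 195 and 170 (EV), 157 (sh5) and 149 and 149 TPM (sh7) (log2 difference -0.29, SE 0.0960, adjusted p = 0.314). Ube2c stood at 467 and 403 (EV), 401 (sh5) and 363 and 367 TPM (sh7) (log2 difference -0.25, SE 0.0971, adjusted p = 0.346). Bub1, a kinetochore kinase of the checkpoint, stood at 81.8 and 67.6 (EV), 53.6 (sh5) and 65.3 and 61.5 TPM (sh7), so that sh5 was its lowest library. The other genes of this group differed: Ttk, the kinase that starts the checkpoint signal, was at 35.6 and 28.1 TPM in EV and 36.8 and 36.5 TPM in sh7, and Bub1b and Bub3 overlapped EV in sh7.

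Ccnb1, cyclin B1, stood at 226 and 202 (EV), 193 (sh5) and 184 and 176 TPM (sh7) (sh7 log2 difference -0.25, SE 0.0907, adjusted p = 0.337). Both sh7 values lay below both EV values. Its relative Ccnb2 overlapped EV in sh7, at 110 and 130.4 TPM against 137 and 106 TPM, and Ccna2, cyclin A2, did so at 238 and 252 TPM against 278 and 233 TPM. Cdk1 stood at 414 and 433 (EV), 417 (sh5) and 447 and 483 TPM (sh7), above EV in both sh7 libraries. Cenpa was at 245 and 204 TPM in EV and 169 and 182 TPM in sh7 (log2 difference -0.35, SE 0.117, adjusted p = 0.320), the lowest of the centromere genes in sh7 relative to EV. Without EV replicate 1 these sh7 differences were smaller, at -0.34 for Mad2l1, -0.19 for Cdc20, -0.21 for Cenpa and -0.14 for Ube2c.

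**Figure D5:**
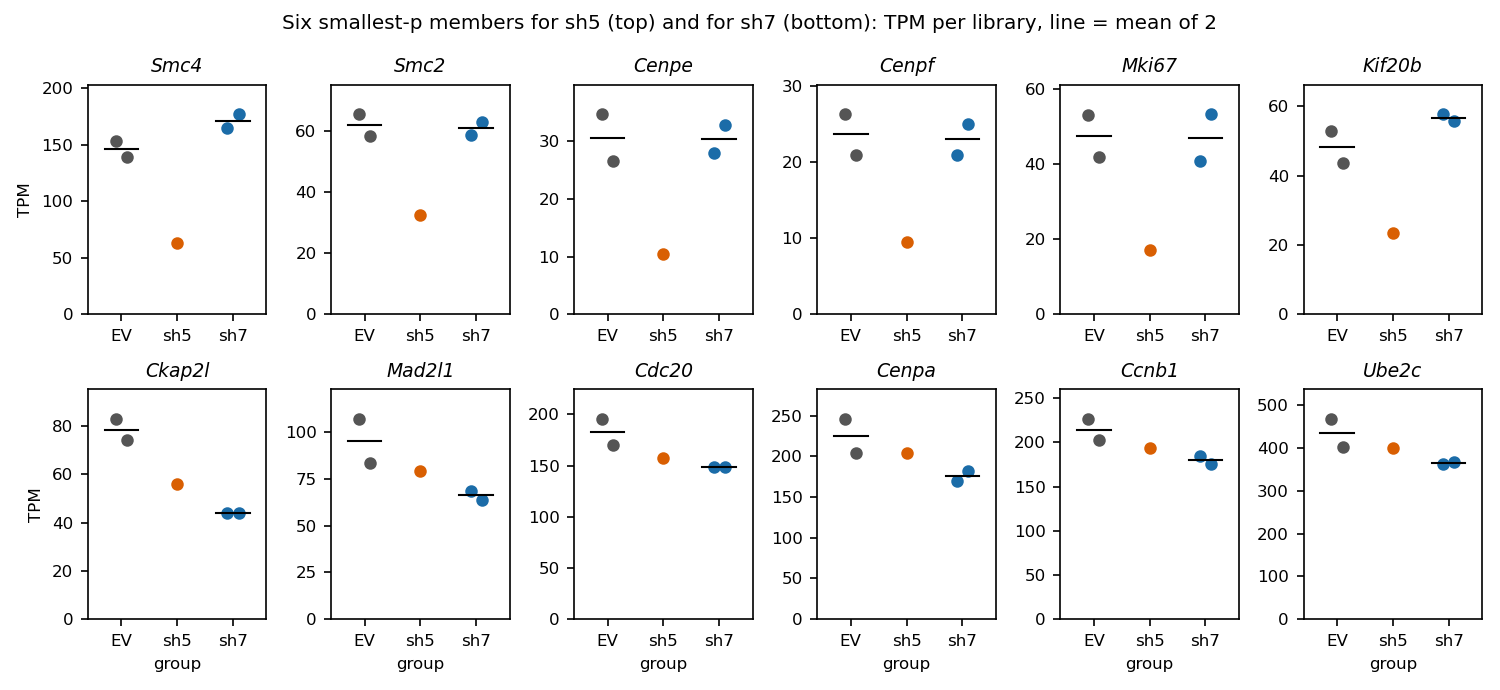
TPM in each library for the 6 genes of smallest unadjusted p in sh5 against EV (top row) and in sh7 against EV (bottom row), with points for libraries and lines for the mean of 2 libraries in EV and sh7. In the top row the sh5 point lies below all others, at 63.3 TPM for Smc4 and 10.4 TPM for Cenpe, and in the bottom row both sh7 points lie below both EV points.

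The constructs were compared directly as well. In sh7 against sh5, 37 of the 49 genes were higher in sh7 (75.5%, beside 68.0% of all tested genes) and 12 lower (24.5%, beside 31.9%). The median of the 49 was 0.32 log2 units, against 0.16 for all tested genes. Under median-of-ratios scaling 31 of the 49 were higher and 18 lower, counts that were not taken over all tested genes. Both sh7 libraries lay above the sh5 library for 37 genes, or 75.5%, beside 58.5% of all tested genes. By limma 2 of 12728 genes passed (0.0157%), again Dgcr8 and Mir22hg, and 0 of the 49. At an unadjusted p under 0.05, 21 of the 49 were higher in sh7, beside 17.1% of all tested genes, and 1 lower, beside 3.56%. The smallest p belonged to Smc4, 1.42 log2 units higher in sh7 (SE 0.113, adjusted p = 0.111), followed by Kif20b (1.24, SE 0.152, adjusted p = 0.115), Smc2 (0.89, SE 0.128, adjusted p = 0.118), Cenpe (1.45, SE 0.210, adjusted p = 0.118), Mki67 (1.41, SE 0.225, adjusted p = 0.125) and Hmmr (0.79, SE 0.132, adjusted p = 0.126). For each of these 6 genes both sh7 libraries lay above sh5. Ckap2l was the 1 gene lower in sh7 at an unadjusted p under 0.05, by a log2 difference of -0.34 (SE 0.120, adjusted p = 0.216). Relative to the median of all genes the median of the 49 was 0.16, 0.15 under median-of-ratios scaling and 0.23 under quantile normalization.

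With sh5 and sh7 pooled against EV, 38 of the 49 genes were lower and 11 higher, beside 44.3% and 55.7% of all tested genes. The median of the 49 was -0.09 log2 units, against 0.03 for all tested genes. In every shRNA library 6 genes lay below both EV libraries, or 12.2%, beside 7.20% of all tested genes, and 1 gene, Nek2, a centrosome kinase, lay above them, or 2.04%, beside 12.0%. Nek2 stood at 113 and 111 (EV), 114 (sh5) and 132 and 121 TPM (sh7). Of 12728 genes 3 passed by limma (0.0236%), namely Atp6-ps, Gm47250 and AC144621.1, named after their values were seen, and 0 of the 49. At an unadjusted p under 0.05, 3 of the 49 were lower, Ckap2l, Mad2l1 and Cdc20, beside 1.33% of all tested genes, and 0 higher, beside 2.43%. Ckap2l had a log2 difference of -0.71 (SE 0.146), Mad2l1 of -0.43 (SE 0.152) and Cdc20 of -0.27 (SE 0.09997), all at an adjusted p of 0.908. The next were Bub1 at -0.31, Ccnb1 at -0.21 and Cenpa at -0.27. Leaving out EV replicate 1 gave smaller differences, at -0.25 for Mad2l1, -0.17 for Cdc20, -0.17 for Bub1, -0.13 for Ccnb1 and -0.14 for Cenpa. Without EV replicate 1 the median was -4.59e-05 (0.05 for all tested genes), with 24 of the 49 genes higher and 25 lower. Without EV replicate 2 it was -0.22 (0.0025 for all).

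Other genes of the same pathway were read from lists. Of 70 further mitosis genes tested, 36 lay below both EV libraries in sh5 (51.4%, beside 43.7%) and 33 above them in sh7 (47.1%, beside 35.8%), and 0 passed the threshold by limma in either comparison. Their median was -0.11 in sh5 and 0.11 in sh7, and at an unadjusted p under 0.05 13 were lower in sh5 (18.6%, beside 7.96%) and 8 higher in sh7 (11.4%, beside 10.3%). Kif15, a kinesin that backs up Kif11, stood at 21.2 and 19.9 (EV), 7.93 (sh5) and 24.4 and 27.4 TPM (sh7). Knl1, the kinetochore scaffold that recruits Bub1, stood at 21.3 and 22.4 (EV), 10.6 (sh5) and 19.3 and 22.2 TPM (sh7). The importin gene Kpna2, whose mRNA also peaks in G2 and mitosis, stood at 45.9 and 31.1 (EV), 2.01 (sh5) and 27.4 and 32.1 TPM (sh7). In all 3, which had the smallest p of this list in sh5, the sh5 library was the lowest. Of the 70 genes, 6 stood under 60% of their EV mean in sh5, these 3 among them, beside 7.61% of all tested genes. In sh7, the smallest p-values were those of Zwint, a kinetochore protein, at 168 and 183 TPM in EV and 237 and 247 TPM in sh7, Mastl, the kinase that keeps mitotic phosphates in place, at 17.0 and 16.8 TPM and 24.6 and 23.3 TPM, and Trip13, which takes the checkpoint complex apart, at 66.1 and 74.5 TPM and 55.9 and 53.2 TPM.

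Of 22 transcription factors and MuvB subunits of the programme, 9 lay above both EV libraries in sh7 (40.9%, beside 35.8%) and 6 lay below them (27.3%, beside 14.3%), with the median of all tested genes, 0.09. In sh5, 15 lay below (68.2%, beside 43.7%), with a median of -0.14. E2f2, an activator of cell cycle genes, was at 7.78 and 10.2 TPM in EV and 14.8 and 14.8 TPM in sh7, and Lin54, the MuvB subunit that binds the CHR, at 25.1 and 25.5 TPM and 37.1 and 32.4 TPM. In sh5 the Rb family members Rb1, Rbl1 and Rbl2 lay below EV, at 7.97, 28.7 and 6.68 TPM against EV means of 12.3, 39.8 and 11.8 TPM. Of 13 genes of the G2 checkpoint and Cdk inhibition, the largest sh5 difference among the named was that of Cdkn1a, the p21 inhibitor and p53 target, at 82.1 and 135 (EV), 182 (sh5) and 132 and 134 TPM (sh7). Its sh5 log2 difference was 0.78, and 0.43 without EV replicate 1. Wee1, the kinase that restrains Cdk1, was at 12.6 and 15.7 TPM in EV and 22.9 and 22.1 TPM in sh7. Of the 17 APC/C subunits and activators, Anapc15 was at 56.6 and 51.2 TPM in EV and 41.2 and 34.5 TPM in sh7, and the list had a median of -0.03 in sh7 and -0.05 in sh5. None of these differences passed the threshold (adjusted p from 0.219 for Zwint to 0.520 for Cdkn1a, each in the comparison that its values are given for).

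Genes of DNA replication, which peak in S phase before the mitotic genes, did not show the same sh5 values. Of 36 S phase genes, 9 lay below both EV libraries in sh5 (43.7% of all tested genes did) and 15 above (26.9% of all did). Their median was 0.04 log2 units against -0.27 for the 49 G2 and mitosis genes. Under 60% of the EV mean stood 0, beside 7.61% of all tested genes. The largest subunit of the clamp loader, Rfc1, was at 73.3 and 62.2 TPM in EV and 41.5 TPM in sh5, and Fen1, the flap nuclease of lagging strand synthesis, at 97.7 and 105 TPM and 122 TPM. In sh7 the S phase genes had a median of 0.08, with Mcm7, a subunit of the replicative helicase, at 373 and 338 TPM in EV and 459 and 434 TPM in sh7. The difference between the lists was not tested.

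The promoter letters printed above were set beside the differences. The 28 genes with TTTGAA in a window had a median sh5 difference of -0.30 log2 units and the 13 genes with a window but no TTTGAA -0.18, with ranges from -1.42 to 0.17 and from -1.46 to 0.13. In sh7 the medians were 0.01 and -0.01. The ranges overlapped in both comparisons, so genes with and without these letters were found among the lowest: Mki67, Cenpf and Kif20b hold TTTGAA and Cenpe does not.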

How the data were processed

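Poly(A) RNA was measured in 5 libraries of 3 groups (2 EV, 1 sh5, 2 sh7). The authors deposited TPM per gene, and the submitters' processing notes name kallisto 0.48.0. For the genome build, the annotation and the summing of transcripts, the sources used here give nothing. TPM keep no depth, so sequencing depth is unknown and no counting error was derived. Reads shared by near-identical copies may have been split between them.

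Tests used limma 3.58.1 in R 4.3.3 (lmFit, eBayes with trend) on log2(TPM + 1) for the 12728 genes whose mean reached 1 TPM, with Benjamini-Hochberg adjustment over all of them and a two-sided threshold of 0.05. The log2(TPM + 1) scale understates changes of low genes. Comparisons of single constructs came from a model with 3 groups (2 residual degrees of freedom), and the pooled comparison from a model with 2 arms (3 residual degrees of freedom). The labels do not name separate cultures as the source of replicates. A p-value here thus reflects the spread of these samples alone, and that spread may be technical. The procedure was tested on simulated data.

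The 49 genes, the lists and the tests were chosen with earlier results of these data known. Named in full are Drosha, the 6 of the 49 that had the lowest unadjusted p per comparison, the 3 highest and lowest by level, and, for other lists, the 3 smallest p in sh7 and in sh5 against EV; further genes of the 49 are given by their values. Some of the genes that meet the rule for other lists are not described. Alternatives were pseudocounts of 0.1 and 0.5, no filter or a mean of at least 5 TPM, median-of-ratios scaling, quantile normalization, eBayes without trend or robust, the replicate number as a block, and each library left out. Counts of genes outside the EV range under other scalings and without a library were added after seeing the data.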

Additional observations from a re-analysis of the deposited data

Results flagged for a closer look

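For 6 of the 49 genes the sh5 library lay below both EV libraries while both sh7 libraries lay above them, which is 12.2% of the 49, beside 14.0% of all tested genes. The count is thus no higher than the background. The difference of sh7 from sh5 was tested by limma and passed for none of the 6. It was 1.42 log2 units for Smc4 (SE 0.113, adjusted p = 0.111), 1.24 for Kif20b (SE 0.152, adjusted p = 0.115), 0.68 for Kif4, a chromosome-bound kinesin (SE 0.156, adjusted p = 0.142), 0.50 for Prc1, which bundles the central spindle (SE 0.136, adjusted p = 0.164), 0.49 for Ttk (SE 0.174, adjusted p = 0.216) and 0.34 for Ckap2 (SE 0.104, adjusted p = 0.183). Kif4 stood at 24.8 and 23.0 (EV), 16.9 (sh5) and 25.6 and 29.7 TPM (sh7). Prc1 stood at 133 and 111 (EV), 99.1 (sh5) and 139 and 142 TPM (sh7).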

How the results depend on the processing

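The number of genes past the threshold depended on the settings. For sh7 against EV, where 2 passed, it was 1 with a pseudocount of 0.1, 1 with 0.5, 0 without a filter, 4 at a mean of at least 5 TPM, 1 with median-of-ratios scaling, 1 with quantile normalization, 19 without trend, 7 with robust estimation and 0 to 281 with a library left out. For sh5 against EV, where 0 passed, it was 180 without a filter and 0 to 59 with a library left out. For sh7 against sh5, where 2 passed, it was 251 without a filter, 0 without trend, 4 with robust estimation and 0 to 4 with a library left out. For the pooled comparison, where 3 passed, it was 0 without a filter, 1 at a mean of at least 5 TPM and 0 to 3 with a library left out. The cause was not tested. Of the 49 genes, 0 passed in any comparison where all libraries were kept. The fit without EV replicate 2 leaves a single EV library, so its calls among the 49 are not read here. With the replicate number as a block, 0 genes passed in sh7 against EV, in sh7 against sh5 and in the pooled comparison. Same-numbered EV and sh7 libraries did not deviate together (r = -0.0158 over 12728 genes, 2 pairs). A single correlation cannot decide whether the numbers mark a shared culture or preparation.

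The median of the 49 genes with a library left out ran from -0.094 to 0.12 for sh7, from -0.42 to -0.16 for sh5, from 0.28 to 0.33 for sh7 against sh5 and from -0.22 to -4.29e-05 for the pooled comparison. For sh7 against sh5 it was 0.16 with median-of-ratios scaling and 0.20 with quantile normalization. Genes below both EV libraries in sh7 numbered 18 and 13 under these 2 scalings and 7 to 31 with a library left out, and genes above numbered 5 and 4, and 8 to 32. Genes above EV in sh5 numbered 4 to 10 with a library left out. In the comparison that each was named for, no named gene changed sign (0 of 783 values). Apart from Drosha, these genes were named for a small p in that comparison, which favours a stable sign. The filter and eBayes settings cannot change the difference itself, so the count does not measure robustness. Sign changes elsewhere were not counted by gene, but in sh7 the genes higher than EV numbered 24, 40 without EV replicate 1 and 14 without EV replicate 2. Without EV replicate 2, which leaves a single EV library, the sh5 difference of Kpna2 was -3.96, against -3.69 with all libraries. Depth is unknown, and 2 EV libraries that differ from each other limit every comparison with EV.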
